A study of Mus with 17 samples.

Results

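The transcripts described here are the 7 messenger RNAs of respiratory complex I that the mitochondrial genome encodes, mt-Nd1, mt-Nd2, mt-Nd3, mt-Nd4l, mt-Nd4, mt-Nd5 and mt-Nd6. They were chosen by their Ensembl transcript identifiers, each paired with its gene name in the selection rule. Of the 7 identifiers, 6 were listed in all 17 library files, among 39614 transcripts listed in every file. The seventh, mt-Nd4l (ENSMUST00000084013), had no row in the files used here and was not analysed. A filter on low values (a signal of at least 1 in at least 5 libraries) passed mt-Nd1, mt-Nd2, mt-Nd3, mt-Nd5 and mt-Nd6, which were tested with 29983 transcripts in all, and did not pass mt-Nd4.

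Complex I, NADH:ubiquinone oxidoreductase, takes electrons from NADH, passes them to ubiquinone and pumps protons across the inner mitochondrial membrane. Most of its subunits come from nuclear genes, while the ND proteins, made inside the mitochondrion, form the core of its membrane arm. Mitochondrial genes are transcribed as long precursors that are cut mostly at the tRNAs lying between them. The mRNAs of the same strand can therefore share promoters but differ in processing and stability. In the artery wall, mitochondria serve the energy metabolism of smooth muscle and endothelial cells and are a known source of reactive oxygen species under angiotensin II.

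The study examined vascular effects of neferine, a plant alkaloid found in lotus, in mice given the vasoconstrictor hormone angiotensin II. RNA came from the abdominal aorta of C57BL/6 mice, an inbred laboratory strain, all of wild-type genotype and all sampled after 42 days of treatment. Control mice (n = 5) received saline and double distilled water. AngII mice (n = 6) received angiotensin II at 500 ng/kg/min and double distilled water, and AngII+neferine mice (n = 6) received the same angiotensin II dose with neferine at 1 mg/kg/day in place of the water. The labels give neither the age of the mice nor how many contributed to a sample, so the p-values refer to the variation among the samples as deposited.

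Values are the abundance signals per transcript that the authors deposited, on a linear scale whose unit is not named. The signals of a library sum to between 392615 and 569873, and the number of reads behind them is unknown. The 11 Control and AngII files list 43752 transcripts each and the 6 AngII+neferine files list 41642. The AngII+neferine group therefore cannot be told apart from its file set. The tissue label could not be checked against marker genes, because no table used here pairs the identifiers with gene names and 0 of them matched the RefSeq gene table (assembly GRCm38.p6). AngII replicate 6, with 18.3% of its listed transcripts at 0 against 5.44% to 11.1% in the other libraries, stood apart. AngII replicate 2 and AngII+neferine replicate 1 stood apart by the complex I signal itself, as described next.

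Complex I transcripts took up several percent of the signal of every aorta library, and the libraries of a group differed more from each other than the group means did. The 6 listed transcripts together held 3.28% ± 0.889 (SD, n = 5) of the Control signal. The share was 3.48% ± 2.17 (SD, n = 6) for AngII and 3.55% ± 1.60 (SD, n = 6) for AngII+neferine. The Control shares were 2.54%, 3.12%, 2.98%, 4.82% and 2.92% in replicates 1, 2, 4, 5 and 6. AngII libraries ran from 1.97% through a median of 2.83% to 7.83%, and AngII+neferine libraries from 2.26% through a median of 2.78% to 6.42%. The groups overlapped. Without mt-Nd4, which had signal in only 3 libraries, the shares were 3.28% ± 0.889 (SD, n = 5), 3.22% ± 1.76 (SD, n = 6) and 3.42% ± 1.32 (SD, n = 6) for Control, AngII and AngII+neferine. A difference in the share of a bulk sample can come from fewer cells of a type or from less RNA per cell, and these cannot be told apart here.

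**Figure D1:**
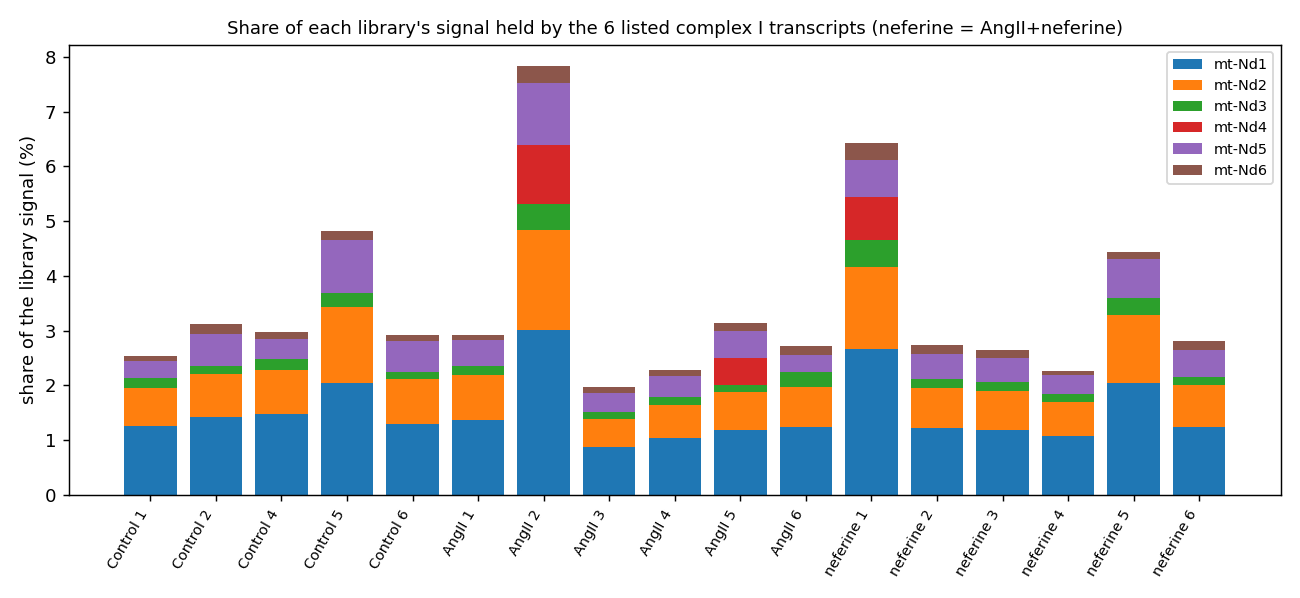
Share of the library signal (percent, vertical axis) held by each listed complex I transcript, stacked, for each of the 17 libraries (horizontal axis). AngII replicate 2 reached 7.83% and AngII+neferine replicate 1 reached 6.42%, while the next were Control replicate 5 at 4.82% and AngII+neferine replicate 5 at 4.44%; mt-Nd4 is visible in only 3 libraries.

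Every group held at least 1 library with a high complex I share. AngII replicate 2 and AngII+neferine replicate 1 led, followed by Control replicate 5 at 4.82% and AngII+neferine replicate 5 at 4.44%. The other 13 libraries lay between 1.97% and 3.14%. The first 2 libraries also had high signal totals, 522609 and 569873. AngII replicate 6 had a total of 542841 with a share of 2.72%, so a high total was also present without a high share. Without AngII replicate 2 the AngII mean was 2.61% ± 0.476 (SD, n = 5), and without AngII+neferine replicate 1 the mean of that group was 2.98% ± 0.844 (SD, n = 5). That AngII mean includes the mt-Nd4 signal of AngII replicate 5. With mt-Nd4 left out of the sum as well, it was 2.51% ± 0.381 (SD, n = 5). The difference of means between AngII and Control was 0.204 percentage points with all libraries and -0.666 without AngII replicate 2 and AngII+neferine replicate 1. Leaving out Control replicate 5 alone gave 0.590. With all libraries, the difference was -0.0563 percentage points with mt-Nd4 left out of the sum and -0.155 between the group medians.

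The subunits ND1 and ND3 lie at the foot of the membrane arm, next to where ubiquinone binds, and ND3 carries a loop that moves between the active and the resting form of the enzyme. In Control, mt-Nd1 (ENSMUST00000082392) had signals of 5299, 5610, 6544, 9009 and 5162 in replicates 1, 2, 4, 5 and 6. Its signal in AngII ran from 3561 through a median of 5344 to 15755, and in AngII+neferine from 4363 through a median of 5162 to 15166. The ranges overlapped, and the highest libraries were AngII replicate 2 and AngII+neferine replicate 1. It ranked between 3 and 8 by signal among all listed transcripts in every library. Whether the deposited signal is divided by transcript length is not given in the sources used here, so ranks and ratios between transcripts describe the files and not molecule numbers.

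Signals of mt-Nd3 (ENSMUST00000082411) were 772, 594, 895, 1186 and 531 in Control replicates 1, 2, 4, 5 and 6. In AngII they ran from 491 through a median of 625 to 2438, and in AngII+neferine from 627 through a median of 710 to 2721. AngII replicate 2, AngII+neferine replicate 1 and, at 1566, AngII replicate 6 were highest, and the groups overlapped. Of the 5 tested members mt-Nd3 had the widest spread between libraries of a group, with an SD of 0.80 on the log2(value + 1) scale. The other 4 had 0.64 to 0.66, and the median over all tested transcripts was 0.60.

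ND2, ND4 and ND5 are the antiporter-like subunits that form the proton channels along the membrane arm, with ND5 at its far end. The signal of mt-Nd2 (ENSMUST00000082396) was 2944, 3029, 3575, 6028 and 3275 in Control replicates 1, 2, 4, 5 and 6. It ran from 2078 through a median of 3127 to 9540 in AngII and from 2529 through a median of 3094 to 8604 in AngII+neferine. As for mt-Nd1, AngII replicate 2 and AngII+neferine replicate 1 were highest. Control replicate 5 at 6028 and AngII+neferine replicate 5 at 5583 came next, and the groups overlapped.

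For mt-Nd5 (ENSMUST00000082418), Control signals were 1367, 2290, 1599, 4245 and 2213 in the same order. AngII signals ran from 1444 through a median of 1839 to 5970, and AngII+neferine signals from 1350 through a median of 1975 to 3831. Control replicate 5 lay above AngII+neferine replicate 1 here, unlike for the other members.

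mt-Nd6 (ENSMUST00000082419) encodes a membrane-arm subunit and is the only protein-coding gene on the light strand of the mitochondrial genome. Control signals were 393, 728, 616, 685 and 457 in replicates 1, 2, 4, 5 and 6. AngII signals ran from 429 through a median of 574 to 1568, and AngII+neferine signals from 332 through a median of 647 to 1748. The lowest and the highest of all 17 libraries were thus both AngII+neferine libraries, replicates 4 and 1. In the RefSeq table ND6 overlaps its neighbour ND5. The sources used here do not say that counting used the strand, so reads of mt-Nd6 and of RNA antisense to it cannot be told apart. The nuclear genome holds copies of mitochondrial DNA, and how the authors assigned reads shared with such copies is not given, which makes the level of every member uncertain to that extent.

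**Figure D2:**
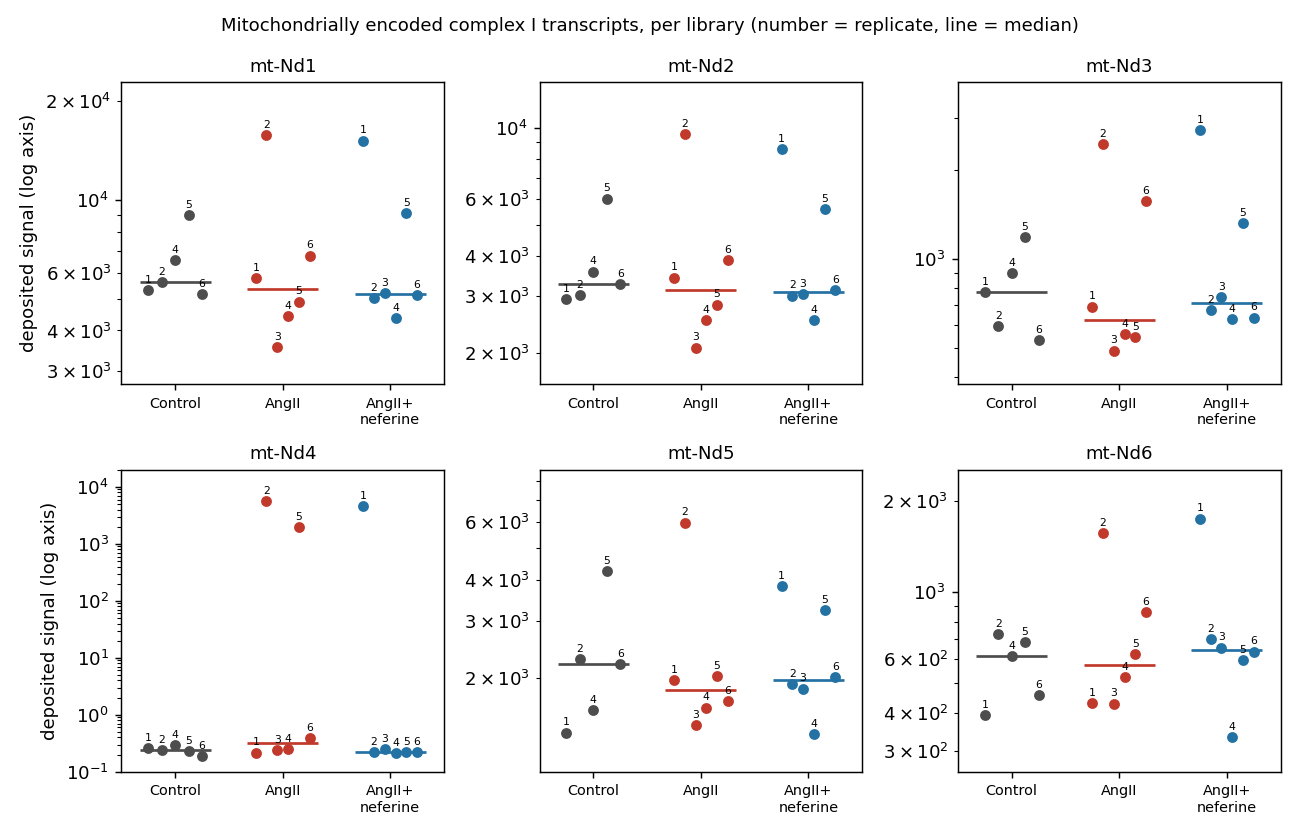
Deposited signal (vertical axes, log scale) of the 6 listed complex I transcripts in Control, AngII and AngII+neferine libraries, with replicate numbers beside the points and a line at each group's median. For mt-Nd1 all 17 libraries lie between 3561 and 15755 and the groups overlap, while mt-Nd4 is under 1 in 14 libraries and above 1000 in 3.

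The signal of mt-Nd4 (ENSMUST00000082414) was of another kind, with no intermediate values. It was 0.263, 0.237, 0.292, 0.228 and 0.188 in Control replicates 1, 2, 4, 5 and 6. It was 5658 in AngII replicate 2, 1979 in AngII replicate 5 and 4537 in AngII+neferine replicate 1, and between 0.213 and 0.391 in the other 9 treated libraries. In all, 14 libraries were under 1 and 3 were above 1000. In the 3 libraries with signal, mt-Nd4 made up 1.08%, 0.482% and 0.796% of the library, in the order named. In AngII replicate 5 the other members lay within the range of the libraries with low mt-Nd4, for example 2030 for mt-Nd5. The 14 low values stood beside mt-Nd5 signals of 1350 to 4245 from the same genome, and a value this low may be a failed estimate, so no fold is given between the 2 states.

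The ratio of 1 assembled transcript to mt-Nd1 was lower in the 3 libraries with high mt-Nd4, while its own signal overlapped. MERGE.52426.9 had signals of 1068 to 3134 (median 2249) in the 3 libraries and of 1446 to 3550 (median 1986) in the 14 others, and mt-Nd1 itself was highest in AngII replicate 2 and AngII+neferine replicate 1. MERGE.52426.9, picked out after its values were seen, had a ratio to mt-Nd1 of 0.311 to 0.415 (median 0.366) in the 14 libraries with low mt-Nd4 and of 0.199, 0.218 and 0.148 in AngII replicate 2, AngII replicate 5 and AngII+neferine replicate 1. Of 85 tested transcripts with a signal of at least 1000 in some library, it was the 1 whose ratio to mt-Nd1 was lower in each of these 3 libraries than in all 14 others. That search looked for lower ratios only and used the values by which the transcript was picked, so it is no separate support. The sum of mt-Nd4 and MERGE.52426.9 had a ratio to mt-Nd1 of 0.447 to 0.622 in the 3 libraries and of 0.312 to 0.415 in the 14, so the sum was not level either. The files do not say where this assembled transcript lies. In the RefSeq table ND4 follows ND4L and overlaps it, and both are known to be carried on 1 shared mRNA. Whether MERGE.52426.9 has any sequence in common with them was not tested.

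**Figure D3:**
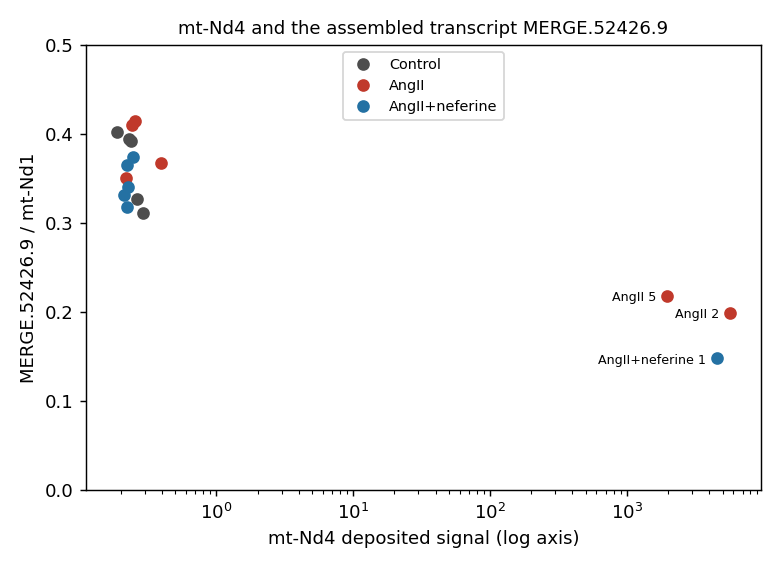
Ratio of the assembled transcript MERGE.52426.9 to mt-Nd1 (vertical axis) against the deposited mt-Nd4 signal (horizontal axis, log scale), 1 point per library, coloured by group. The 14 libraries with mt-Nd4 under 1 lie at ratios of 0.311 to 0.415, and the 3 labelled libraries with mt-Nd4 above 1000 lie at 0.148 to 0.218.

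Relative to mt-Nd1, mt-Nd2 varied little over the 17 libraries and mt-Nd3, mt-Nd5 and mt-Nd6 varied more. The log2 ratio of mt-Nd2 to mt-Nd1 had an SD of 0.077, against 0.28 for mt-Nd3, 0.30 for mt-Nd5 and 0.36 for mt-Nd6. The mt-Nd2 ratio averaged 0.589 ± 0.0589 (SD, n = 5) for Control, 0.584 ± 0.0127 (SD, n = 6) for AngII and 0.593 ± 0.0179 (SD, n = 6) in AngII+neferine. Control was the most spread of the 3 groups for this ratio, with 0.540 to 0.555 in replicates 1, 2 and 4 and with 0.669 and 0.635 in replicates 5 and 6, and both treated groups lay between these levels.

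The mt-Nd5 ratio to mt-Nd1 fell into a lower and a higher set of libraries, each with members of all 3 groups. It lay between 0.244 and 0.258 in 4 libraries, Control replicates 1 and 4, AngII replicate 6 and AngII+neferine replicate 1, and between 0.309 and 0.471 in the other 13. The 4 libraries had 7.47% to 18.3% of listed transcripts at 0 and the other 13 had 5.44% to 9.75%, and the part of this in the ratio was not tested. Group means were 0.362 ± 0.104 (SD, n = 5) for Control, 0.360 ± 0.0593 (SD, n = 6) for AngII and 0.342 ± 0.0528 (SD, n = 6) in AngII+neferine.

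The mt-Nd3 ratio to mt-Nd1 was 0.125 ± 0.0192 (SD, n = 5) for Control, 0.147 ± 0.0442 (SD, n = 6) for AngII and 0.145 ± 0.0188 (SD, n = 6) in AngII+neferine. AngII replicate 6, at 0.231, was the highest of all libraries, and AngII+neferine replicate 1 came next at 0.179. The mt-Nd6 ratio was 0.0925 ± 0.0224 (SD, n = 5), 0.111 ± 0.0207 (SD, n = 6) and 0.108 ± 0.0299 (SD, n = 6) in the same order. In AngII+neferine it was 0.0761 and 0.0655 in replicates 4 and 5 and between 0.115 and 0.139 in the others, and 4 of the 5 Control libraries lay at 0.0741 to 0.0941, so the groups overlapped.

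**Figure D4:**
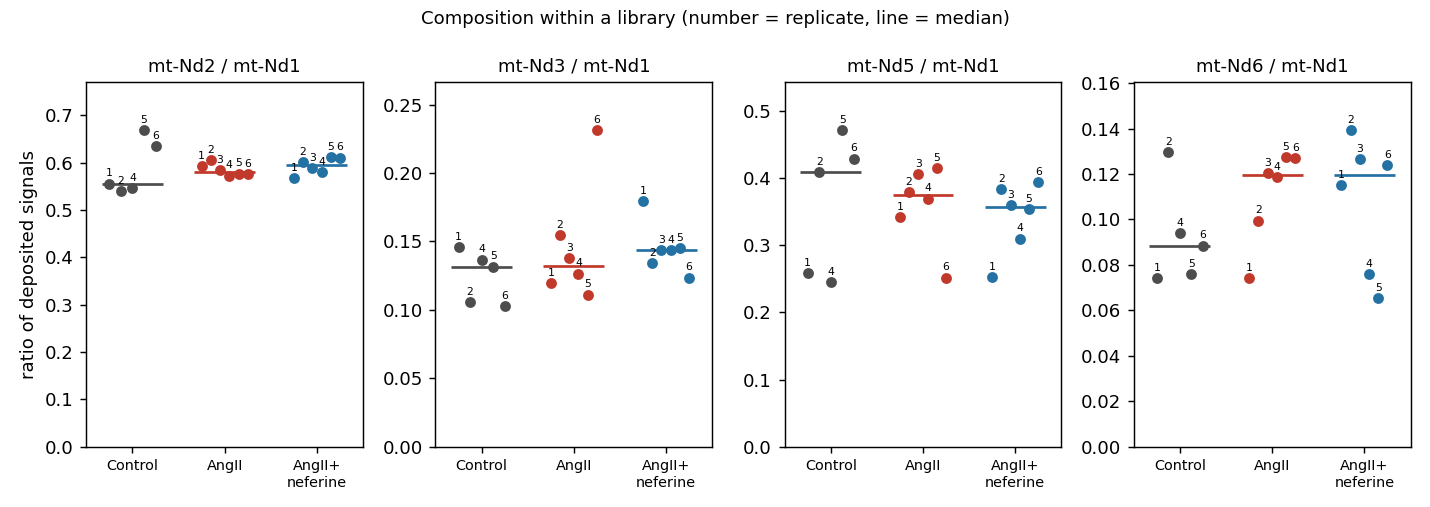
Ratio of the deposited signals of mt-Nd2, mt-Nd3, mt-Nd5 and mt-Nd6 to that of mt-Nd1 in the same library (vertical axes, starting at 0), by group, with replicate numbers and a line at each group's median. The mt-Nd2 ratios lie between 0.540 and 0.669. Split at 0.3, a limit chosen after the values were seen, the mt-Nd5 ratios lie at 0.244 to 0.258 in 4 libraries and at 0.309 to 0.471 in the other 13.

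Pairs of members were also described by their rank correlation over the 17 libraries, which share depth and composition. Spearman's rho was 0.94 between mt-Nd1 and mt-Nd2 and 0.88 between mt-Nd1 and mt-Nd3. It was 0.64 between mt-Nd1 and mt-Nd5, 0.59 between mt-Nd1 and mt-Nd6, and 0.37 between mt-Nd3 and mt-Nd5. Without AngII replicate 2 and AngII+neferine replicate 1 these were 0.91, 0.83, 0.49, 0.40 and 0.096 over 15 libraries. The value for mt-Nd3 and mt-Nd5 was the lowest of the 5 both times, and those of mt-Nd1 with mt-Nd2 and mt-Nd3 were the highest.

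AngII was compared with Control to ask whether angiotensin II infusion goes with another level of complex I transcripts. None of the 5 tested members was called (limma, adjusted p of 0.900 to 0.995), and 0% of all tested transcripts were called in this comparison. At an unadjusted p under 0.05 there were 0 members too, against 7.25% of all tested transcripts. For 0 members were both groups without overlap, against 0.807% of all. The log2 fold change was -0.039 ± 0.37 (SE) for mt-Nd1, -0.046 ± 0.38 (SE) for mt-Nd2 and -0.014 ± 0.37 (SE) for mt-Nd5. It was 0.17 ± 0.46 (SE) for mt-Nd3 and 0.23 ± 0.38 (SE) for mt-Nd6. Estimates were below 0 for 3 of the 5 members, as for 52.5% of all tested transcripts. The members' median of -0.014 lay beside a median of -0.026 over all tested transcripts.

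These intervals are wide. For mt-Nd1 the 95% interval of AngII over Control ran from 0.568-fold to 1.67-fold, so these samples do not exclude differences within these limits. The interval does not say how large a difference would have been called. Without AngII replicate 2 and AngII+neferine replicate 1, a choice made after the data were seen, the log2 fold change was -0.32 for mt-Nd1, -0.33 for mt-Nd2, -0.14 for mt-Nd3, -0.31 for mt-Nd5 and -0.018 for mt-Nd6, with 0 members called (limma, adjusted p of 0.729 to 0.989). All 5 estimates were then below 0, against 3 of 5 with all libraries. AngII replicate 2 was the highest AngII library for each of the 5, so leaving it out could only lower these estimates. Leaving out Control replicate 5 alone moved them the other way, and all 5 were then above 0. They were 0.096 for mt-Nd1, 0.14 for mt-Nd2, 0.32 for mt-Nd3, 0.23 for mt-Nd5 and 0.31 for mt-Nd6.

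**Figure D5:**
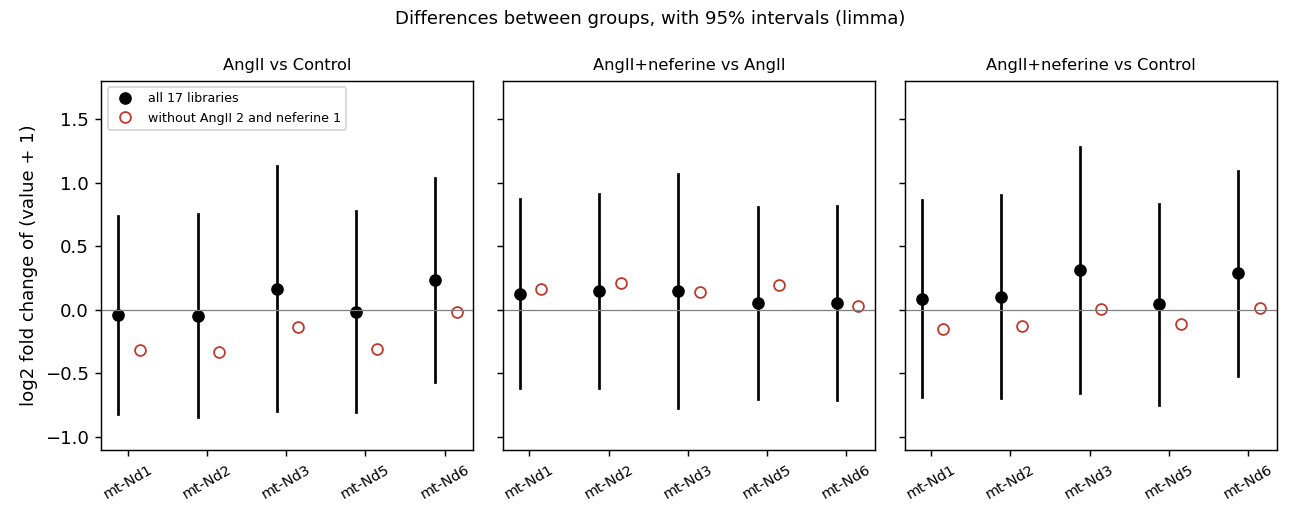
Log2 fold change of (value + 1) between groups (vertical axis) for the 5 tested complex I transcripts in the 3 comparisons, as filled points with 95% intervals from limma over all 17 libraries, and as open points without AngII replicate 2 and AngII+neferine replicate 1. Every interval includes 0. In AngII against Control the open points lie lower, at -0.33 to -0.018. They leave out AngII replicate 2, the highest AngII library for all 5 transcripts.

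AngII+neferine was compared with AngII to ask whether neferine goes with another level under the infusion. None of the 5 members was called (limma, adjusted p of 0.985 to 0.998), with 0% of all tested transcripts called. There were 0 members at an unadjusted p under 0.05, against 5.22% of all, and 0 without overlap, against 0.263% of all. All 5 estimates were above 0, where 50.5% of all tested transcripts lay below 0, and were small beside their errors, at 0.13 ± 0.35 (SE) for mt-Nd1, 0.15 ± 0.36 (SE) for mt-Nd2, 0.15 ± 0.44 (SE) for mt-Nd3, 0.056 ± 0.36 (SE) for mt-Nd5 and 0.053 ± 0.36 (SE) for mt-Nd6. The members' median was 0.13 and that of all tested transcripts -0.0042. The 95% interval of mt-Nd1 ran from 0.653-fold to 1.83-fold. The 5 members come from the same libraries, so their shared direction is not 5 separate observations. Leaving out AngII+neferine replicate 1 alone put all 5 estimates below 0, with -0.11 for mt-Nd1. Leaving out AngII replicate 3 alone also put all 5 below 0, with -0.024 for mt-Nd1. Leaving out AngII replicate 2 alone gave 0.41 for mt-Nd1. Without both AngII replicate 2 and AngII+neferine replicate 1 the estimates were 0.16 for mt-Nd1, 0.21 for mt-Nd2, 0.14 for mt-Nd3, 0.20 for mt-Nd5 and 0.033 for mt-Nd6, with 0 members called.

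AngII+neferine was compared with Control to ask what differs from saline when both agents are given. This comparison shares its libraries with the 2 above. Again 0 of 5 members were called (limma, adjusted p of 0.871 to 0.987), against 0.0367% of all tested transcripts. At an unadjusted p under 0.05 there were 0 members, against 8.74% of all, and in 0 members the groups did not overlap, against 2.08% of all. The log2 fold change was 0.31 ± 0.46 (SE) for mt-Nd3 and 0.29 ± 0.38 (SE) for mt-Nd6, and 0.088 ± 0.37 (SE), 0.10 ± 0.38 (SE) and 0.042 ± 0.37 (SE) for mt-Nd1, mt-Nd2 and mt-Nd5. None of the 5 was below 0, against 52.9% of all tested transcripts, and here too the 5 are not separate observations. The members' median was 0.10 and that of all tested transcripts -0.028. The 95% interval ran from 0.620-fold to 1.82-fold for mt-Nd1 and from 0.635-fold to 2.42-fold for mt-Nd3. Without AngII replicate 2 and AngII+neferine replicate 1 the estimates for mt-Nd3 and mt-Nd6 were 0.0072 and 0.015, and those for the other 3 were below 0.

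Among tested transcripts that are not complex I members, the pattern over the 17 libraries most like the summed member signal was that of ENSMUST00000189941, with a Spearman rho of 0.90, followed by ENSMUST00000117219 with 0.89. ENSMUST00000189941 had a signal of 7082 ± 2037 (SD, n = 5) for Control, 7090 ± 4638 (SD, n = 6) for AngII and 7625 ± 3967 (SD, n = 6) in AngII+neferine. ENSMUST00000117219 was far lower, between 2.92 and 25.5. The most opposite patterns were those of ENSMUST00000102694, with a rho of -0.94, and MERGE.26727.1, with -0.92. Without AngII replicate 2 and AngII+neferine replicate 1 the 4 values were 0.85, 0.84, -0.93 and -0.90 over 15 libraries. The sum used to pick these transcripts included mt-Nd4. With mt-Nd4 left out of the sum, the values over 17 libraries were 0.95, 0.81, -0.89 and -0.95. The first 2 were then further apart, and the 2 opposite transcripts changed places. These are the extremes of 29978 transcripts and a description of these libraries.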

How the data were processed

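RNA from mouse abdominal aorta was sequenced in 17 samples. Per the labels' protocols, Trizol RNA (1 μg) was depleted of ribosomal RNA before library construction. The deposited values are a linear signal per transcript, and per the file headers no unit is named. The aligner, assembler, quantification tool, strand setting and genome build were each not given in the sources used here. Limma appears in the submitters' processing notes, with no version or role. The read depth is unknown, so no interval that needs counts was computed.

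Groups and replicate numbers came from the sample titles. No library duplicated another, as pairs shared identical nonzero values in 0.414% of transcripts or fewer. Of the 7 members, 6 were found by identifier. All 7 genes were found by symbol in the RefSeq table of GRCm38.p6, which was used only for gene order. Transcripts listed in every file and reaching 1 or more in 5 or more libraries entered limma 3.58.1 (R 4.3.3) on the log2(value + 1) scale, in 1 trended, robust fit of 17 samples with a term per group. Log2 fold changes are on that scale. P-values were Benjamini-Hochberg adjusted over 29983 transcripts and called under 0.05. Shares, ratios and correlations are descriptions. Outside the members, the rule named the 2 transcripts most like and the 2 least like the summed member signal. Planned lists of other mitochondrial mRNAs, nuclear complex I genes, assembly factors, mitochondrial transcription genes and cell type markers could not be used, since identifiers were not paired with symbols. Members and lists were chosen with earlier results of these data known. The fit was tested on simulated data.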

Additional observations from a re-analysis of the deposited data

Results flagged for a closer look

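The 6 listed members, their summed share and 4 ratios to mt-Nd1, in each group, gave 33 sets of 5 or 6 values. In 11 of these sets 1 library was far from the rest. Most of the 11 repeat the same libraries. The rule has a nominal rate of about 5%, but the sets share libraries and values, so the count cannot be read against that rate. AngII replicate 2 was far above the other AngII libraries in mt-Nd1 (15755), mt-Nd2 (9540), mt-Nd4 (5658), mt-Nd5 (5970) and the summed share (7.83%). AngII+neferine replicate 1 was far above its group in mt-Nd3 (2721), mt-Nd4 (4537) and mt-Nd6 (1748). Control replicate 5 was far above its group in mt-Nd2 (6028) and the summed share (4.82%). The ratio of mt-Nd3 to mt-Nd1 in AngII replicate 6 (0.231) was the other such value, and that library also had the highest share of transcripts listed at 0, 18.3%.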

How the results depend on the processing

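No complex I transcript was called in any comparison under any of the 27 alternatives (limma), and adjusted p for the 5 members ranged from 0.700 to 1.00. Of 405 recomputed log2 fold changes, 344 kept their direction and 61 reversed it. Of the 344, 135 were identical to the reported estimate, because the setting (a library of the other group left out, another filter or variance fit, or a balanced block) leaves the group means as they are, and 209 moved. The cause was not tested. Counts over all transcripts ranged from 0 to 12, 0 to 15 and 0 to 106 calls in AngII against Control, AngII+neferine against AngII and AngII+neferine against Control, where the reported counts were 0, 0 and 11. The depth is unknown, so its limit could not be stated.

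Leaving out 1 library at a time, AngII against Control ranged from -0.32 to 0.11 for mt-Nd1, -0.33 to 0.14 for mt-Nd2, -0.14 to 0.33 for mt-Nd3, -0.31 to 0.23 for mt-Nd5 and -0.018 to 0.36 for mt-Nd6. AngII+neferine against AngII ranged from -0.11 to 0.41, -0.079 to 0.44, -0.16 to 0.45, -0.10 to 0.35 and -0.22 to 0.30 in the same order. AngII+neferine against Control ranged from -0.15 to 0.22 for mt-Nd1, -0.13 to 0.29 for mt-Nd2, 0.0072 to 0.47 for mt-Nd3, -0.12 to 0.29 for mt-Nd5 and 0.015 to 0.49 for mt-Nd6. The lowest values came without AngII replicate 2 in the first comparison and, except for mt-Nd5 in the last (Control replicate 1), without AngII+neferine replicate 1 in the others. The difference of the summed share ranged from -0.666 to 0.590, -0.500 to 0.944 and -0.296 to 0.664 percentage points.

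Fits without 1 library reversed estimates in every comparison and are left out of the list that follows. For mt-Nd5 in AngII against Control they did so in 7 of 17 fits. No other setting reversed an estimate in AngII+neferine against AngII. In AngII against Control the replicate block reversed mt-Nd1 to 0.070, mt-Nd2 to 0.065 and mt-Nd5 to 0.068. Library weights reversed mt-Nd3 to -0.17. Leaving out AngII replicate 2 and AngII+neferine replicate 1 reversed mt-Nd3 to -0.14 and mt-Nd6 to -0.018. With AngII replicate 6 left out as well, these were -0.43 and -0.18. In AngII+neferine against Control, rescaling to a common total reversed mt-Nd1 to -0.0018 and mt-Nd5 to -0.048. Rescaling without the members reversed mt-Nd5 to -0.044. Library weights gave -0.021 for mt-Nd1, -0.0018 for mt-Nd2 and -0.034 for mt-Nd5. Without AngII replicate 2 and AngII+neferine replicate 1, mt-Nd1 reversed to -0.15, mt-Nd2 to -0.13 and mt-Nd5 to -0.11. These values were the same with AngII replicate 6 left out as well. The replicate block called 0 members in each comparison, and 0 against 11 transcripts overall in the last. The labels do not say that replicate numbers pair the samples. Deviations of same-numbered libraries correlated by -0.15 to 0.064, with 0 of 16 pairs over 0.1. Such a correlation over all tested transcripts cannot exclude a pairing that touches few of them. The fits without 2 or 3 libraries and the share without mt-Nd4 were chosen after seeing the data.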

Other observations

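A value near 0 in some libraries and one above 1000 in others was not limited to mt-Nd4. Of 87 transcripts listed in every file with a signal of at least 1000 in some library, 13 (14.9%) were under 5 in another library, mt-Nd4 among them. The 13 were picked by their highest and lowest values alone, and some also had intermediate values. ENSMUST00000031668, for example, was at 12.6 in AngII replicate 4, 109 in Control replicate 1 and 554 in Control replicate 5. ENSMUST00000082408, picked out after its values were seen, was at 1680 in AngII replicate 4 and between 0.160 and 0.278 in the other 16 libraries. ENSMUST00000082421, picked out likewise, was at 4.04 in Control replicate 4 and between 4554 and 20237 in the others. The libraries that stood alone for these 2 transcripts were not those in which mt-Nd4 had signal.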
